A study of Mus musculus with 3 samples.

Results

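Transcript levels of 40 genes that encode Polycomb proteins, DNA methylation enzymes, chromatin remodellers and histone deacetylases were followed in ScxGFP-positive cells of the embryonic mouse hindlimb. The genes were taken by symbol, grouped by the complex their products belong to, and all 40 were found among the 22072 symbols listed. Scleraxis, the product of Scx, is a transcription factor found in the precursors of tendons and ligaments, and GFP marks cells in which its reporter is active. The mice had a mixed strain background, all groups carry the same reporter, and the sorted cells came from pooled hindlimbs, with 18 in the pool of stage E11.5, 12 in that of E13.5 and 11 in that of E15.5. How the reporter was built is not given in the sources used here, so sorted cells are those with GFP, whichever cell type they belong to. Each pool gave 1 library, so every difference given here is one between 2 libraries, has no replicate check and carries no p-value.

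Chromatin regulators of these families set which genes a progenitor can switch on or keep silent. Polycomb repressive complex 2 (PRC2) places methyl groups on lysine 27 of histone H3, a mark that Polycomb repressive complex 1 (PRC1) binds through its chromobox (Cbx) subunits, and the Kdm6 enzymes remove it. Dnmt enzymes methylate cytosine in DNA, Tet enzymes oxidise that methyl group, remodellers of the CHD and SWI/SNF families move nucleosomes with energy from ATP, and histone deacetylases take acetyl groups off histones. Many of these subunits exist as pairs or sets of related genes whose products replace each other in a complex, and such exchanges are a known feature of differentiating cells. In the limb, Polycomb proteins are best known for keeping Hox genes silent outside their proper domains.

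Levels are FPKM, fragment counts scaled to transcript length and to the number of mapped fragments, summed over the transcripts of a gene. Values given as 3 in a row are in stage order, from E11.5 through E13.5 to E15.5. Changes are differences in log2(FPKM + 1), on which 1 is a 2-fold change and changes of low genes are understated. Genes counted at 2-fold or 1.5-fold below are counted on this scale, and FPKM itself can differ more. Ranges in brackets are 95% Poisson intervals. They are approximate, cover nothing but counting error, and rest on an estimated 13800000, 12200000 and 17100000 reads on the listed transcripts. Scx itself stood at 375, 410 and 213 FPKM. The 8 tendon markers summed to 444, 954 and 2772 FPKM, and Tnmd, which encodes the tendon protein tenomodulin, was listed at 0 at E11.5. Skeletal muscle markers, 8 genes, summed to 12.1, 64.0 and 227 FPKM and 6 cartilage markers to 140, 221 and 320. The 5 endothelial markers summed to 0.818, 2.67 and 8.75 FPKM, the 5 epidermal markers to 1.09, 4.03 and 9.19, and the 5 smooth muscle and pericyte markers to 3.66, 18.8 and 32.6. Bone markers (5 genes) summed to 4.61, 18.8 and 15.7 FPKM, erythroid markers (6) to 10.5, 15.02 and 12.97, Schwann cell markers (5) to 2.22, 2.14 and 2.40, and 6 leukocyte and 5 neuron markers to at most 2.59 and 2.19. Pecam1, Ptprc and Sox10, defining markers of endothelium, leukocytes and Schwann cells, stayed under 1 FPKM in every library. The summed tendon, cartilage, muscle, endothelial, epidermal and smooth muscle markers were thus higher at each stage, though not every marker was: Sox9, a cartilage regulator, was at 56.2, 41.0 and 22.5 FPKM. The part of these cell types in the differences below was not tested. In bulk RNA, fewer cells of a type and less RNA per cell cannot be told apart.

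Most chromatin genes were well expressed at every stage. Of the 40, at least 5 FPKM was reached by 31, 32 and 32 in stage order, where 24.7%, 26.3% and 27.4% of all listed genes did. The most abundant were Chd4 (45.2 FPKM), Hdac2 (42.8) and Smarca4 (40.6) at E11.5, and Smarca2 at E13.5 (82.0) and E15.5 (83.6). The rank of Smarca2 rests on the sum with a short transcript that starts inside the gene. Its long transcript alone was at 34.6 and 31.4 FPKM in those libraries, below Chd4 at 37.7 and 31.9. Cbx7, a chromobox gene, stood at 0.137, 0.112 and 0.248 FPKM, and Hdac9, a class IIa deacetylase gene, at 0.549, 1.39 and 0.817. Both were below a mean of 1 FPKM over the 3 libraries, the limit for entering a comparison, which left 38. Deposited estimates flagged as failed took Phc3 out of both comparisons with E13.5 and Smarca4 out of both comparisons with E15.5.

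**Figure D1:**
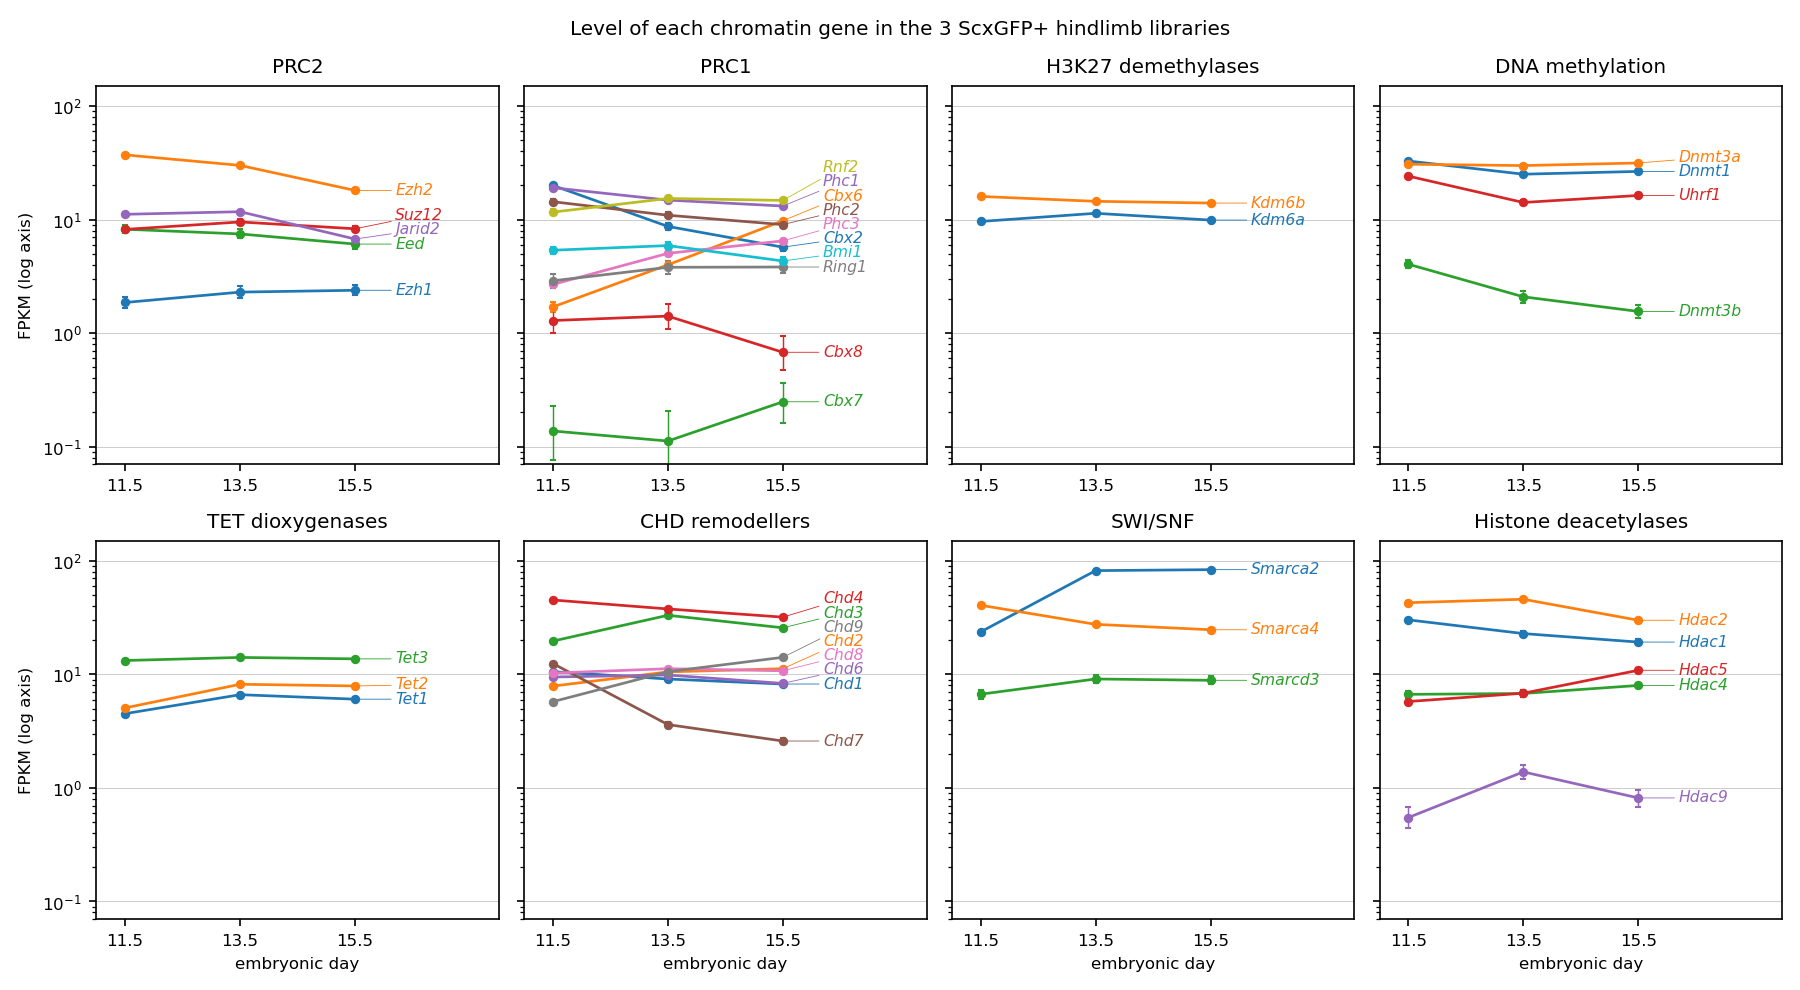
FPKM of each of the 40 genes (log axis) against embryonic day, in 8 panels by complex; points are single libraries and bars are counting intervals only. Cbx2 and Cbx6 cross between E13.5 and E15.5, Chd7 and Chd9 cross between E11.5 and E13.5, and so do Smarca4 and Smarca2.

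Between E11.5 and E13.5 the widest differences were a higher level of Smarca2, the ATPase gene that alternates with Smarca4 in SWI/SNF complexes, and lower levels of Chd7, a CHD remodeller gene, and Cbx2, a PRC1 chromobox gene. Of 37 genes compared between E13.5 and E11.5, 1 was at least 2-fold higher (Smarca2), against 6.00% of all 10938 genes compared, and 2 were at least 2-fold lower (Chd7 and Cbx2), against 1.02%. The FPKM of Cbx6 itself was 2.35-fold higher, which fell short of 2-fold on the log2(FPKM + 1) scale. At 1.5-fold, 5 were higher (14.7% of all genes), with Cbx6, Chd9, Chd3 and Tet2 joining Smarca2, and 4 were lower (4.70% of all genes), with Dnmt3b and Uhrf1 joining Chd7 and Cbx2. Their median change was 0.07, and that of all genes was also 0.07. The shares of the compared chromatin genes past 2-fold were 2.70% upward and 5.41% downward.

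Between E13.5 and E15.5, Cbx6 was higher and the PRC2 genes Ezh2 and Jarid2 and the deacetylase gene Hdac2 were lower. Of 36 genes compared between E15.5 and E13.5, 1 was at least 2-fold higher (Cbx6), against 3.58% of 10934 genes, and none was 2-fold lower, against 0.713%. The FPKM of Cbx8, a low gene, was at 0.480 of its E13.5 value, which fell short of 2-fold on the log2(FPKM + 1) scale. At 1.5-fold, Cbx6 and Hdac5 were higher (9.68% of all genes) and Ezh2, Jarid2 and Hdac2 were lower (3.43% of all genes). The median was -0.12, beside 0.04 for all genes. Of the 36, 25 were below their E13.5 level, against 4910 of all 10934 genes. With the libraries rescaled to equal sums of FPKM, Cbx6 stood at 0.93, under the 2-fold line, the median of these genes was -0.30 and that of all genes was -0.13.

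Across both steps, 4 of 37 genes were at least 2-fold higher at E15.5 than at E11.5 (Cbx6, Smarca2, Chd9 and Phc3), against 12.6% of 10939 genes, and 3 were at least 2-fold lower (Chd7, Cbx2 and Ezh2), against 2.14%. At 1.5-fold, 5 were higher (23.1% of all genes), the fifth being Hdac5, and 7 were lower (8.64% of all genes), with Dnmt3b, Jarid2, Hdac1 and Phc2 added. That count of 7 became 11 with size factors and with equal sums. As shares, 10.8% were 2-fold higher and 8.11% were 2-fold lower. On the log2(FPKM + 1) scale Ezh2 lay on the line at -1.002 and Dnmt3b just short of it at -0.98. Dnmt3b was past it with size factors (-1.06), equal sums (-1.09) and a pseudocount of 0.1 (-1.33). The plain FPKM ratio of E15.5 to E11.5 was 0.486 for Ezh2 and 0.384 for Dnmt3b. Of the 7 genes past 2-fold, 6 stayed past it under each of the alternative settings tried. Settings of the filter and the status cannot alter the change of a single gene. Phc3, with changes from 0.79 to 1.24, stayed past 2-fold with a pseudocount of 0.1. It fell short of it with size factors, with equal sums and with the highest transcript.

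**Figure D2:**
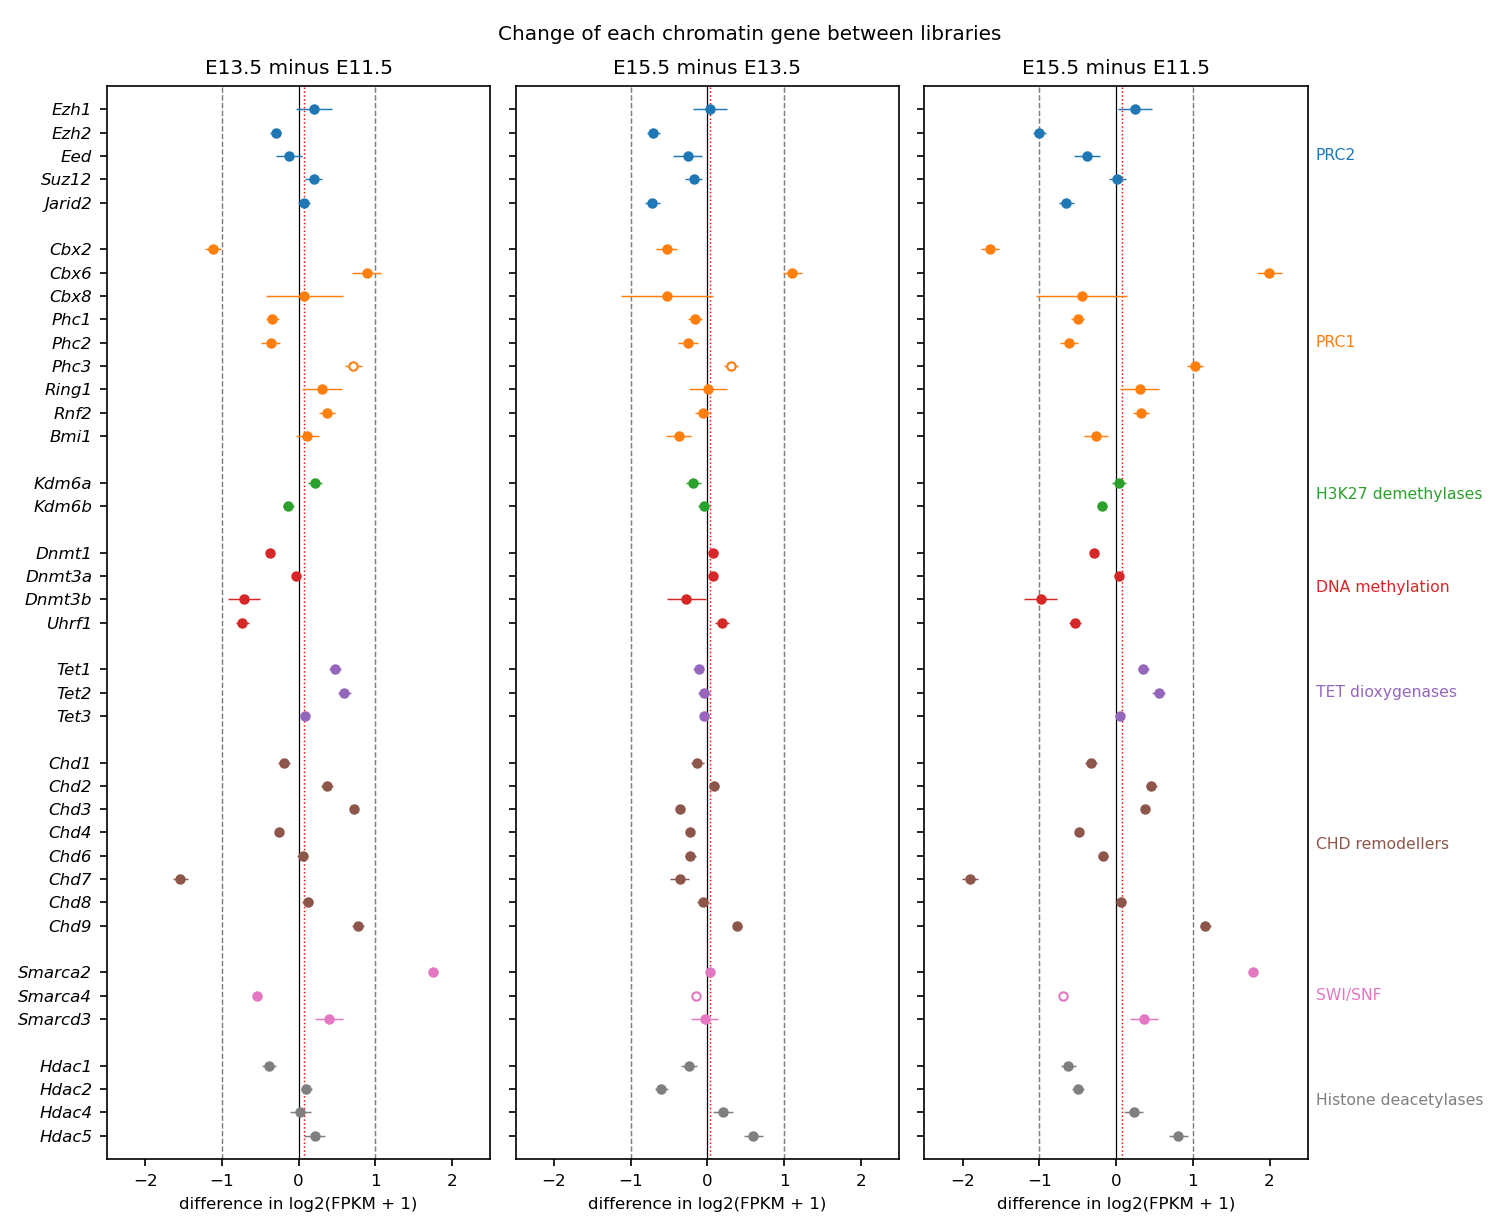
Difference in log2(FPKM + 1) of 38 genes (rows, coloured by complex) in the 3 comparisons; bars are counting intervals only, dashed lines mark 2-fold, the dotted red line is the median of all genes, and open circles rest on a failed estimate. Smarca2, Chd7 and Cbx2 lie past 2-fold in the first panel, and Cbx6 alone does in the second.

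Within PRC2, the catalytic subunit gene Ezh2 was lower at each successive stage while its scaffold partners differed less. The levels of Ezh2, which lies on mm9 chromosome 6 from 47480273 to 47545029, were 37.1 (35.9 to 38.3), 30.0 (28.8 to 31.2) and 18.0 FPKM (17.2 to 18.9), and the intervals do not overlap. The difference was -0.30 at the earlier step and -0.70 at the later one. Its paralog Ezh1, the other H3K27 methyltransferase and the one associated with cells that divide little, was at 1.86, 2.30 and 2.38 FPKM, with overlapping intervals at E13.5 and E15.5. Suz12, which holds the complex together, was at 8.19, 9.52 and 8.29 FPKM, and Eed, which binds the methylated histone, at 8.22, 7.47 and 6.08. Neither differed by 1.5-fold in any comparison. Jarid2, which helps bring PRC2 to chromatin, was at 11.1, 11.7 and 6.73 FPKM, with E11.5 and E13.5 close together and E15.5 lower. The 5 PRC2 genes had medians of 0.07, -0.26 and -0.38 for E13.5 against E11.5, E15.5 against E13.5 and E15.5 against E11.5.

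The listed transcripts of these genes went the same way for Ezh2 and not for Jarid2. The main Ezh2 transcript, NM_007971, was at 33.2, 26.6 and 15.2 FPKM and the second, NM_001146689, at 3.90, 3.40 and 2.84. For Jarid2, NM_001205043 was at 5.97, 11.2 and 3.40 FPKM, NM_001205044 at 3.56, 0.503 and 3.34, and NM_021878 at 1.59 and close to 0 afterwards. The 3 share their end, the last 2 named share their start as well, and their lengths lie between 5670 and 5997 bases, so the split between them is an estimate of the authors' program. On the log2(FPKM + 1) scale, Jarid2 was the only gene of the 13 with several transcripts in which 2 of them differed at least 2-fold in opposite directions within a comparison. In plain FPKM, Phc3 and Uhrf1 also had such transcripts at E15.5 against E11.5. The ratios were 10.8 (NM_001165956) and 0.498 (NM_001165955) for Phc3, and 2.14 (NM_001111080) and 0.492 (NM_010931) for Uhrf1.

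Because Ezh2 had the widest difference among the PRC2 genes, the 250 bases before its start site are shown, with CG dinucleotides in capitals. They are from RefSeq on GRCm38.p6, chr6:47595031-47595280, minus strand, and hold 23 CG.

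Ezh2: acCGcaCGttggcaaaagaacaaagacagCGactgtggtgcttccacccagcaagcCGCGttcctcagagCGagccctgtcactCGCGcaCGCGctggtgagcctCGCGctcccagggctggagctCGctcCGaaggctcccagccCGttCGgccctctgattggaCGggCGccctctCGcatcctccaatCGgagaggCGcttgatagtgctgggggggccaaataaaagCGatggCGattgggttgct

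In PRC1, Cbx2 was lower and Cbx6 higher at each stage, while the genes of the catalytic RING proteins kept their order. Cbx2 (mm9, chromosome 11, 118884343 to 118892584), a chromobox gene known for its role in skeletal patterning and sex determination, had levels of 19.98 (19.3 to 20.7), 8.70 (8.17 to 9.26) and 5.71 FPKM (5.32 to 6.13). Cbx6 (chromosome 15, 79654328 to 79664763) went the other way, from 1.70 FPKM (1.53 to 1.89) through 3.99 (3.70 to 4.31) to 9.76 (9.33 to 10.2), a 5.74-fold higher FPKM at E15.5 than at E11.5. No intervals of either gene overlap between stages. The span of Cbx6 lies wholly inside that of Npcd, a gene listed at 0.294, 1.08 and 3.17 FPKM, so reads may have been divided between them, and both were higher at each stage. Cbx8 was low, at 1.29, 1.41 and 0.678 FPKM, with wide intervals (1.08 to 1.82 at E13.5 and 0.472 to 0.943 at E15.5).

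Ring1 and Rnf2, the enzymes that attach ubiquitin to histone H2A, were at 2.89, 3.80 and 3.82 FPKM and at 11.6, 15.3 and 14.7 FPKM. Bmi1, their Polycomb group RING finger partner, was at 5.37, 5.90 and 4.32 FPKM. None of these differed by 1.5-fold. Among the polyhomeotic genes, whose products link PRC1 complexes into larger assemblies, Phc1 was at 19.07, 14.8 and 13.2 FPKM and Phc2 at 14.4, 10.9 and 9.03. Phc3 was at 2.68, 5.04 and 6.49 FPKM, with the E13.5 value resting on 4 failed transcript estimates. So Phc1 and Phc2 were lower and Phc3 higher at E15.5 than at E11.5, by -0.50, -0.62 and 1.02. Most of the Phc2 signal was on the shortest transcript, NM_001195083 (13.4, 8.91 and 7.57 FPKM), while NM_001195130 was at 0.966, 2.01 and 1.46. The compared PRC1 genes had medians of 0.09, -0.21 and -0.26, with Cbx2 and Cbx6 at the opposite ends.

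The 250 bases before the Cbx6 start site are given because Cbx6 had the largest positive difference of the 40 between E11.5 and E15.5. They are from RefSeq on GRCm38.p6, chr15:79834334-79834583, minus strand, with their 20 CG dinucleotides in capitals.

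Cbx6: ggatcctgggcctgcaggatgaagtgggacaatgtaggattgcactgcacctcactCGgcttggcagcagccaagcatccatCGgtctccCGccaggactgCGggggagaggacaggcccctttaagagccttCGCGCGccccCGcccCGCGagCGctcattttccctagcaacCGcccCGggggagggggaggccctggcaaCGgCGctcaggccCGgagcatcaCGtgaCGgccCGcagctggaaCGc

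The 2 demethylases that remove the PRC2 mark were among the steadiest genes. Kdm6a, an X-linked gene, was at 9.62, 11.4 and 9.89 FPKM, and Kdm6b, which is also known as a signal-responsive enzyme, at 16.0, 14.5 and 13.97. All their changes lay between -0.18 and 0.22. With Ezh2 lower, the ratio of Kdm6a to Ezh2 within a library was 0.259 (0.245 to 0.274), 0.379 (0.356 to 0.402) and 0.548 (0.514 to 0.585).

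Among DNA methylation genes, Dnmt3b and Uhrf1 were lower after E11.5, Dnmt1 less so, and Dnmt3a was nearly level. Dnmt3b (mm9, chromosome 2, 153475190 to 153513466), a de novo methyltransferase gene typical of early embryonic cells, was at 4.04 FPKM (3.73 to 4.37), 2.09 (1.84 to 2.36) and 1.55 (1.36 to 1.76). Dnmt3a, the de novo enzyme of later tissues, was at 30.7, 29.9 and 31.5 FPKM, with changes of -0.04, 0.07 and 0.04. Dnmt1, which copies methylation to new DNA strands, was at 32.8 FPKM (32.0 to 33.6), 25.1 (24.3 to 25.9) and 26.5 (25.8 to 27.3). Uhrf1, which brings Dnmt1 to freshly replicated DNA, was at 24.1, 14.1 (13.4 to 14.9) and 16.3 FPKM (15.6 to 17.0). Dnmt1 and Uhrf1 were therefore highest at E11.5, and their E15.5 levels lay slightly above those at E13.5 as deposited. With libraries rescaled to equal sums this difference was -0.12 in place of 0.08 for Dnmt1 and 0.00097 in place of 0.19 for Uhrf1, and with the highest transcript alone it was -0.28 for Dnmt1 and -0.08 for Uhrf1. The 4 genes had medians of -0.54, 0.08 and -0.42, and the second became -0.12 under that rescaling.

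Cell cycle genes are set beside these because DNA methylation is copied during replication. Of 20 cell cycle genes used as a reference, 18 were below their E11.5 level at E13.5, against 4661 of all 10938 genes. At E15.5, 12 were above their E13.5 level, against 6021 of all 10934. The medians of the 20 were -0.54, 0.10 and -0.38 in the 3 comparisons. Rrm2, a ribonucleotide reductase subunit gene, was at 42.6, 16.0 and 20.1 FPKM. Mki67, singled out after its values were seen, was at 44.6, 45.9 and 45.0 FPKM. A reference list of 10 housekeeping genes had 8 below their E11.5 level at E13.5 and 9 above their E13.5 level at E15.5. Its medians were -0.15, 0.21 and 0.03, so the direction at each step was shared by both lists, while the sizes differed. At E13.5 against E11.5, 9 of the 20 cell cycle genes and 1 of the 10 housekeeping genes were 1.5-fold lower (4.70% of all genes). In that comparison 0 and 1 were 1.5-fold higher (14.7% of all genes). The part of cell cycle activity in the levels of Dnmt1 and Uhrf1 was not tested.

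Dnmt3a gave 2 transcripts, of which the short one was higher in every library. The long one, NM_007872 (9735 bases), was at 10.2, 13.3 and 12.0 FPKM and the short one, NM_153743 (5424 bases), which starts inside the gene, at 20.5, 16.6 and 19.5. The ratio of long to short was 0.497, 0.798 and 0.618. The reads of Dnmt1 lay mostly on NM_010066 (14.9, 13.8 and 11.2 FPKM) and NM_001199431 (14.7, 7.05 and 12.1), which share both ends and differ by 3 bases in length, so their split carries little information. Uhrf1 was split over 4 transcripts, led in every library by NM_001111078 at 12.4, 8.45 and 7.92 FPKM.

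Promoters were searched for the motif that E2F factors of the cell cycle bind, written as TTTCCCGC, TTTGGCGC, TTTCGCGC or TTTGCCGC, on both strands of the 250 bases before each listed start. RefSeq start sites on GRCm38.p6 were found for 33 of the 40 genes, with 44 promoters. The motif occurred in 3 of these 44 (6.82%), against 1.86% of all 32851 promoters, 3.53% of 9982 promoters of genes averaging 1 FPKM or more, and 4 of 17 promoters of the cell cycle genes. The 3 belong to Dnmt1 (1 of its 3 listed promoters), Uhrf1 (1 of 2) and Suz12, and the 30 bases around each match are shown with the motif in capitals. Their positions are chr9:20952824-20952853 (minus strand), chr17:56304117-56304146 (plus strand) and chr11:79992876-79992905 (plus strand).

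Dnmt1: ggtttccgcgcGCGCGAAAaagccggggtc

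Uhrf1: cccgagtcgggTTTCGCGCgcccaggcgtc

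Suz12: cgacccctcatTTTCCCGCgaattcagttc

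Of these 3 genes, Dnmt1 and Uhrf1 were lower at E13.5 than at E11.5 and Suz12 was not. The Dnmt1 match lies before the most downstream of its 3 listed starts. By the order of starts, that is the start of NM_001199433, which was higher at E13.5 (3.14, 4.24 and 3.19 FPKM). The main transcripts NM_010066 and NM_001199431 start further upstream, where no match was found. A match of letters describes the sequence and is not a bound site.

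The Tet genes, whose enzymes start the removal of DNA methylation, were slightly higher at E13.5 and then level. Tet1 was at 4.51, 6.63 and 6.05 FPKM, Tet2 at 5.07, 8.18 and 7.91, and Tet3, the most abundant, at 13.2, 14.1 and 13.7. Tet2 was the only one to pass 1.5-fold, at 0.60 for E13.5 against E11.5. All 3 were above their E11.5 level at E15.5, by 0.36, 0.55 and 0.04, and the last of these turned to -0.05 with libraries scaled by size factors and -0.11 with equal sums.

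Among the CHD remodellers, Chd7 was far lower after E11.5 while its relative Chd9 was higher. Chd7 (mm9, chromosome 4, 8618068 to 8793956), a remodeller gene known for its roles in neural crest and sense organ development, was at 12.5 FPKM (12.1 to 12.8), 3.61 (3.40 to 3.84) and 2.59 (2.42 to 2.77). Its E15.5 level was 0.208 of that at E11.5. In the earlier comparison only 30 of 10938 genes had a more negative change, and in E15.5 against E11.5 only 38 of 10939. Chd9 (chromosome 8, 93352734 to 93578407) was at 5.75 FPKM (5.53 to 5.98), 10.6 (10.2 to 10.9) and 14.1 (13.8 to 14.5), higher at each stage. Chd8 and Chd6, the other genes of this subfamily, were at 10.3, 11.2 and 10.8 FPKM and at 9.48, 9.87 and 8.33, with no difference past 1.5-fold.

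Chd3 and Chd4, the alternative ATPases of the NuRD complex, which joins remodelling to deacetylation, came closer in level. Chd4 was at 45.2, 37.7 and 31.9 FPKM, lower at each stage, and Chd3 at 19.6, 33.2 and 25.7, highest at E13.5. Chd1, which travels with transcribing RNA polymerase, was at 10.6, 9.10 and 8.22 FPKM, and Chd2, its relative, at 7.89, 10.5 and 11.2. Chd2 overlaps the gene 1810026B05Rik over 1949 bases (2.04, 3.14 and 1.84 FPKM), and with no strand stated these reads cannot be told apart. The 8 CHD genes had medians of 0.09, -0.18 and -0.05, and with equal sums the last was -0.20.

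In SWI/SNF, Smarca2 was far higher from E13.5 on and Smarca4 lower. Smarca2 (mm9, chromosome 19, 26679650 to 26852811) had levels of 23.7 (22.8 to 24.6), 82.0 (80.3 to 83.7) and 83.6 FPKM (82.0 to 85.2). The E13.5 value was 3.47-fold the E11.5 value, and the intervals of E13.5 and E15.5 overlapped. Of 10938 genes, 191 had a larger positive difference at that step. Smarca4, which encodes the other SWI/SNF ATPase and is typical of dividing progenitors, was at 40.6 FPKM (39.8 to 41.4), 27.6 (26.9 to 28.3) and 24.7, the last from estimates flagged as failed. Smarca4 thus led Smarca2 at E11.5 and trailed it in both later libraries.

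Both Smarca2 transcripts were higher after E11.5. The long transcript NM_011416 (5813 bases) was at 6.79, 34.6 and 31.4 FPKM. The short one, NM_026003 (1962 bases), which starts at 26822893 inside the gene and shares its end, was at 16.9, 47.4 and 52.2. With the long transcript alone, the ratio to Smarca4 was 0.167, 1.25 and 1.27, so the order of the ATPase genes turned in that measure too. Smarcd3, which encodes an accessory subunit known from heart and muscle, was at 6.69 (6.07 to 7.35), 9.11 (8.31 to 9.96) and 8.87 FPKM (8.15 to 9.63). Smarcd1, which encodes an alternative to it in the complex, was at 18.5, 11.7 and 7.74, and the ratio of Smarcd3 to Smarcd1 was 0.361, 0.777 and 1.15.

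The 250 bases before the listed Smarca2 start site are shown because this gene had the largest positive difference of the 40 between E11.5 and E13.5. They are from RefSeq on GRCm38.p6, chr19:26604910-26605159, plus strand, with 28 CG dinucleotides in capitals. They lie before the start of the long transcript, which held 28.7%, 42.2% and 37.6% of the summed Smarca2 FPKM, and not before that of the short one.

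Smarca2: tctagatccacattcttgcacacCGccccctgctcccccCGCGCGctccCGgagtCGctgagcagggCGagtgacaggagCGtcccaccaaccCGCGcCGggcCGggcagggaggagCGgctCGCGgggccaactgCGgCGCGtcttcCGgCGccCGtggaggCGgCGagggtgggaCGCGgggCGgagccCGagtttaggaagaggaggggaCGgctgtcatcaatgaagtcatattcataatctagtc

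The Smarca2, Cbx6 and Ezh2 promoters are all rich in CG, although Ezh2 went the opposite way from the others. Such promoters, with a GC content of at least 50% and at least 0.6 of the CG dinucleotides their base composition predicts, made up 31 of the 44 (70.5%), against 64.6% of promoters of genes averaging 1 FPKM or more and 31.0% of all.

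**Figure D3:**
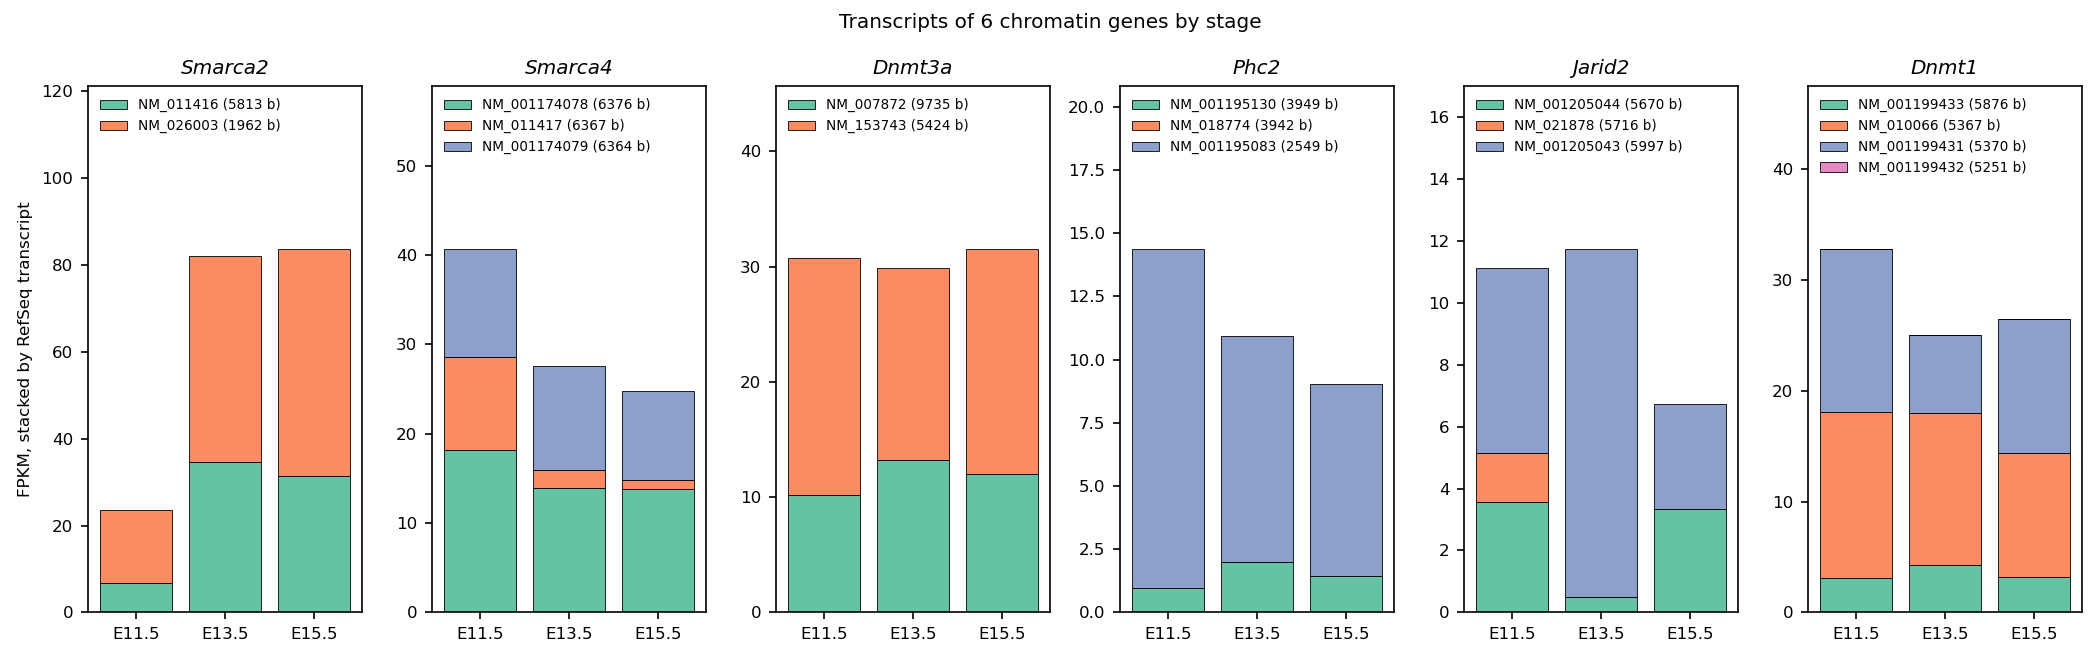
FPKM of single RefSeq transcripts (stacked colours, with their lengths in bases) of 6 genes in the E11.5, E13.5 and E15.5 libraries; each panel has its own axis from 0. Both Smarca2 transcripts are taller after E11.5, while the Jarid2 split changes between libraries.

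Among the deacetylase genes, Hdac1 was lower and Hdac5 higher at E15.5 than at E11.5, and the others stayed within 1.5-fold over that interval. Hdac1 and Hdac2, the class I enzymes of the NuRD and Sin3 complexes, were at 30.2, 22.9 and 19.3 FPKM and at 42.8, 45.9 and 29.97 FPKM. Their differences between E15.5 and E11.5 were -0.62 and -0.50, and Hdac2 was slightly higher at E13.5 than at E11.5 (0.10). Hdac4, a class IIa gene known from cartilage, was at 6.67, 6.79 and 7.99 FPKM, and Hdac5, of the same class, at 5.77 (5.38 to 6.18), 6.82 (6.36 to 7.32) and 10.9 (10.3 to 11.4). Hdac5 was higher by 0.81 at E15.5 than at E11.5. Its main transcript NM_010412 alone was higher by 0.44, under 1.5-fold. NM_010412 was at 5.77, 5.81 and 8.16 FPKM, and NM_001077696 was close to 0 at E11.5 and at 1.02 and 2.71 afterwards. They share both ends and differ by 3 bases in length, so their split carries little information. The compared deacetylase genes had medians of 0.06, -0.02 and -0.14, and the last was 0.23 when Hdac9 was let in.

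Ratios of related genes within a library do not depend on how libraries are scaled, and they show most plainly where the order of related genes turned. Cbx6 over Cbx2 was 0.0851 (0.0761 to 0.0951), 0.459 (0.416 to 0.506) and 1.71 (1.57 to 1.86), 20.1-fold higher at the end than at the start. Chd9 over Chd7 was 0.461, 2.92 and 5.46, an 11.8-fold higher value at E15.5 than at E11.5. Smarca2 over Smarca4 was 0.582 (0.558 to 0.608), 2.97 (2.87 to 3.07) and 3.38, a 5.81-fold higher value, with the failed Smarca4 estimate in the last. With the long Smarca2 transcript alone it was 0.167, 1.25 and 1.27. These ratios passed from below 1 to above 1, and so did Chd8 over Chd7 (0.823, 3.11 and 4.15), Smarcd3 over Smarcd1, given above, and Hdac5 over Hdac4 (0.864, 1.01 and 1.36). For Hdac5 over Hdac4 the intervals of the first 2 libraries overlap (0.788 to 0.948 and 0.912 to 1.11).

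The 6 pairs that follow stayed below 1 in every library. Ezh1 over Ezh2 was 0.0501, 0.0766 and 0.132, so Ezh2 remained the more abundant throughout. Dnmt3b over Dnmt3a was 0.132, 0.0699 and 0.0493, and Chd3 over Chd4 was 0.435, 0.879 and 0.806. Phc3 over Phc1 was 0.141, 0.340 and 0.493. In contrast, Ring1 over Rnf2 was 0.248, 0.248 and 0.259, with overlapping intervals (0.215 to 0.287, 0.216 to 0.284 and 0.228 to 0.294), and Hdac1 over Hdac2 was 0.706, 0.499 and 0.642.

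**Figure D4:**
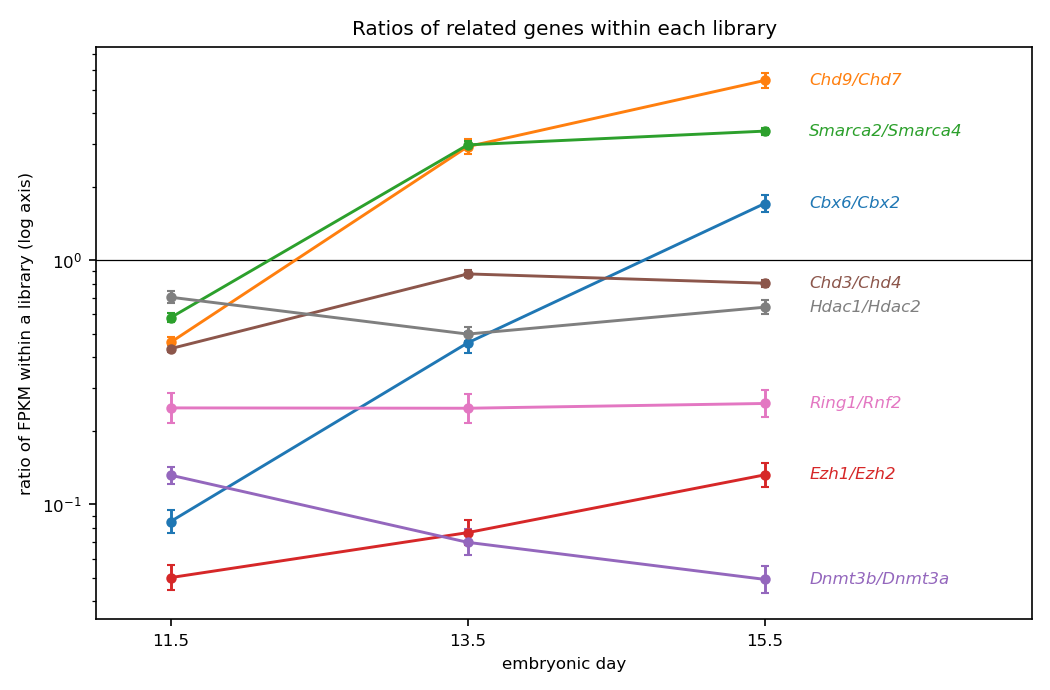
Ratio of FPKM of 8 pairs of related genes within each library (log axis) against embryonic day; bars are counting intervals only and the black line marks equal levels. Chd9/Chd7, Smarca2/Smarca4 and Cbx6/Cbx2 cross that line, while Ring1/Rnf2 lies between 0.248 and 0.259.

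Partners of these proteins were taken from lists of the same complexes, 79 genes in all. Of the 71 compared, none was at least 2-fold higher or lower on the log2(FPKM + 1) scale at E13.5 against E11.5 or at E15.5 against E13.5. Smarca1, an ISWI gene singled out after its values were seen, was close, at 5.70, 12.1 and 10.6 FPKM. Its FPKM at E13.5 was 2.13-fold that at E11.5, a difference of 0.97 on that scale. Phf19, an accessory PRC2 gene singled out after its values were seen, was left out because it averaged under 1 FPKM, and stood at 0.0140, 0.315 and 2.06 FPKM, a difference of 1.22 at the later step. At E15.5 against E11.5, none of 72 was 2-fold higher and 4 were 2-fold lower, beside 12.6% and 2.14% of all genes. At 1.5-fold, 1, 0 and 6 partner genes were higher and 2, 3 and 12 lower in the earlier, later and whole comparison. Of all genes, 14.7%, 9.68% and 23.1% were higher and 4.70%, 3.43% and 8.64% lower. The partner medians were -0.07, -0.04 and -0.19. The 4 past 2-fold were Mtf2, an accessory PRC2 gene (27.9, 19.5 and 12.4 FPKM), Pcgf6, a RING partner of a variant PRC1 (6.09, 4.36 and 2.40), Smarcd1, and Bcl7a, a SWI/SNF subunit gene (10.4, 7.56 and 4.43). Each of these was lower at both steps.

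By complex, 19 further SWI/SNF genes had medians of -0.24, -0.13 and -0.36, with 13, 15 and 14 of 19 below the earlier stage. Of all genes, 4661 of 10938, 4910 of 10934 and 4853 of 10939 were below it. The most abundant of the 19, Smarcc1, a core subunit gene, was at 51.2, 43.4 and 37.8 FPKM. The 7 NuRD genes had medians of 0.03, 0.11 and 0.07, the 11 other PRC1 genes 0.05, -0.16 and -0.31, and the 13 other deacetylase and corepressor genes 0.16, -0.02 and 0.02. ISWI and other remodeller genes, 11 in all, had medians of -0.02, -0.14 and -0.09. The 5 other PRC2 genes had medians of 0.20, 0.19 and 0.58, led in level by Rbbp7, a histone-binding subunit gene, at 44.9, 51.7 and 67.6 FPKM. Other DNA methylation genes, 5, 5 and 6 compared, had medians of -0.21, -0.09 and -0.27.

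**Figure D5:**
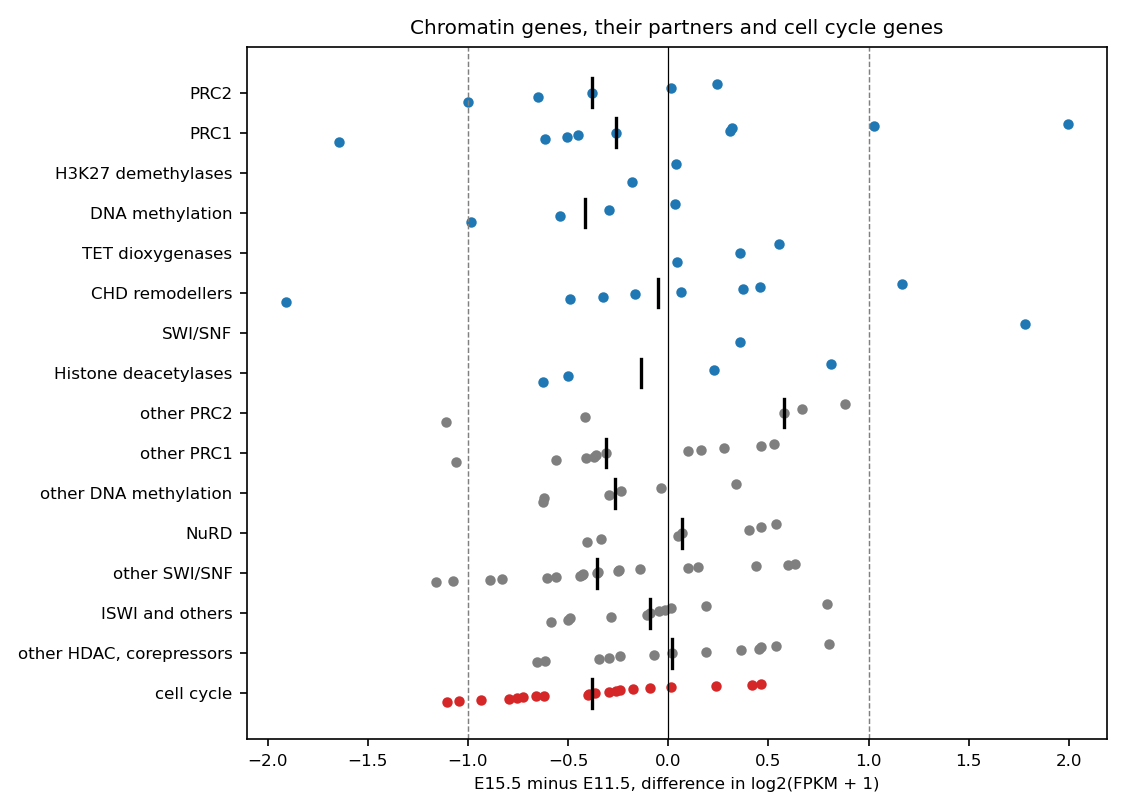
Difference in log2(FPKM + 1) between E15.5 and E11.5 for single genes (points) of the 8 groups (blue), their partner lists (grey) and 20 cell cycle genes (red); black bars are medians of lists with at least 4 genes, and dashed lines mark 2-fold. The widest spreads among the blue points are those of PRC1, from -1.64 to 1.99, and of the CHD remodellers, from -1.91 to 1.16.

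Genes that these systems are known to keep silent were under 1 FPKM in all libraries. Many other genes were too: of all 22072 listed, 10364, 10971 and 11132 reached 1 FPKM in stage order. The lists hold genes chosen as known to be silent, so low values do not test silencing here. Some germline genes were higher at the later stages, and Sycp1 was lower. The 12 germline genes, a class held silent by DNA methylation in body cells, were all under 1 FPKM at every stage, and 5 were listed at 0 throughout. Their sum was 1.35, 2.14 and 2.28 FPKM. The highest single value was that of Tdrd1, a piRNA pathway gene, which was at 0.342, 0.764 and 0.897 FPKM. Brdt, a testis bromodomain gene singled out after its values were seen, was at 0.152 (0.0999 to 0.221), 0.495 (0.387 to 0.623) and 0.509 FPKM (0.408 to 0.627), so its E11.5 interval lies below the others. Sycp1, also singled out afterwards, went the other way, at 0.659 (0.526 to 0.815), 0.429 (0.313 to 0.574) and 0.378 FPKM (0.279 to 0.502). The 12 transcription factor genes of other lineages, known Polycomb targets, were also all under 1 FPKM, 4 of them listed at 0 throughout, with Nkx2-1 the highest at 0.332, 0.530 and 0.217. At the Cdkn2 locus, a textbook Polycomb target that encodes cell cycle inhibitors, Cdkn2a was at 0.0359 FPKM at E11.5 and listed at 0 afterwards, and Cdkn2b was at 0.421, 0.121 and 0.0762.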

How the data were processed

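RNA was measured in a single library for each of 3 stages, from GFP-positive cells sorted on a FACSAria II, with RNeasy micro extraction and NuGEN Ovation v2 cDNA, per the labels' protocols. The noise that cDNA synthesis adds lies outside the counting intervals. The authors deposited FPKM for every RefSeq transcript, beside a coverage signal and an estimation status. The submitters' processing notes name Bowtie 0.12.7, TopHat 1.4.1 and mm9. Which annotation release and which strand setting were used is not given in the sources used here.

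FPKM was summed over the transcripts of a symbol (13 of the 40 genes have several) and compared as log2(FPKM + 1). A gene was compared where it averaged at least 1 FPKM and no transcript had a failed status in either library. Genes were counted at 2-fold and at 1.5-fold, beside all genes, and no test was made. Coverage served only to estimate reads: the commonest covered length of low transcripts, 43 bases within a window of 20 to 100, was taken as 1 read. At 10 FPKM, 2000 bases of transcript then held about 750, 615 and 735 reads. The counting of calls was tested on simulated data. Python 3.11.15, pandas 2.3.3 and scipy 1.17.1 were used.

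All 40 genes may be named. Described in full are those past 2-fold, those with opposed transcripts and the most abundant of each complex. Of each other list at most 3 genes were named, those past 2-fold with at least 5 FPKM, or else the most abundant. Genes and lists were chosen with earlier results of these data known. The entry Dnmt2 matched no symbol. Alternatives were a pseudocount of 0.1, no filter, a mean of at least 5, size factors, equal library sums, the highest transcript, and ignoring the status.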

Additional observations from a re-analysis of the deposited data

How the results depend on the processing

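No paired analysis was possible because each stage has 1 library, and for the same reason no library could be left out. Depth limits Cbx7, Cbx8 and Hdac9, whose intervals are wide. Scaling matters most for E15.5: equal library sums moved the median of all genes from 0.04 to -0.13 (E15.5 against E13.5) and from 0.07 to -0.06 (E15.5 against E11.5). Directions of 3, 6 and 5 genes turned under size factors or equal sums in the earlier, later and whole comparison, none with a change above 0.09 as deposited. The cause of the moves below was not tested, except that a stricter filter compares fewer genes.

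The whole comparison is E15.5 against E11.5. With equal sums, E15.5 against E13.5 had 0 of the chromatin genes 2-fold higher, 1 and 5 at 1.5-fold higher and lower, a median of -0.30, and group medians of -0.44 (PRC2), -0.39 (PRC1), -0.12 (DNA methylation), -0.36 (CHD) and -0.20 (deacetylases). All genes 2-fold lower were 139 in place of 78, and 283 in place of 391 were higher, so the share of higher calls was 67.1% in place of 83.4%. At 1.5-fold, 696 in place of 1058 were higher and 807 in place of 375 lower. E15.5 against E11.5 had 11 in place of 7 chromatin genes 1.5-fold lower, a median of -0.13 in place of 0.02, and group medians of -0.52, -0.40, -0.58, -0.20 and -0.29 in the same order. All genes lower were 362 in place of 234 at 2-fold and 1498 in place of 945 at 1.5-fold. With size factors, 1 in place of 2 chromatin genes was 1.5-fold higher at E15.5 against E13.5, 11 were 1.5-fold lower at E15.5 against E11.5, and the median there was -0.0741, with -0.51 for DNA methylation and -0.14 for CHD.

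With the highest transcript for each gene, 2 in place of 4 chromatin genes were 1.5-fold lower at E13.5 against E11.5, with medians of 0.20 (PRC2) and -0.35 (DNA methylation). Jarid2 became the 1 gene 2-fold lower at E15.5 against E13.5, 1 was 1.5-fold higher, and the DNA methylation medians of the later and whole comparisons were -0.18 and -0.49. With a pseudocount of 0.1, 2 in place of 1 were 2-fold higher at E13.5 against E11.5 and 5 in place of 3 were 1.5-fold lower at E15.5 against E13.5. All genes at 2-fold were then 1154 in place of 656 higher and 191 in place of 112 lower in the earlier comparison, 189 lower in the later and 431 lower in the whole, and 683 were 1.5-fold lower in the later.

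With a mean of at least 5 FPKM, all genes 2-fold higher and lower were 381 and 43, 214 and 42, and 712 and 124 in comparison order, and 800 and 278, 580 and 183, and 1282 and 531 at 1.5-fold. Medians were -0.11 (PRC1) and -0.37 (DNA methylation) in the earlier comparison, -0.48 (PRC2) in the later, and -0.0763 (all chromatin genes), -0.51 (PRC2), -0.38 (PRC1) and -0.30 (DNA methylation) in the whole. Without a filter, deacetylase medians were -0.24 in the later and 0.23 in the whole comparison, and the PRC1 median of the latter was -0.0628. With the status ignored, the median of all chromatin genes in the whole comparison was -0.0763.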
